A study of Mus musculus with 4 samples.

Results

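Pericytes are contractile cells wrapped around capillaries and small vessels, and the mouse ovary holds few of them. Here the cells were chosen by their measured counts of unique molecular identifiers (UMIs), each of which stands for 1 captured transcript. A pericyte had 3 or more UMIs of Rgs5, 1 or more of Notch3 or Mcam, and 0 of Cdh5, Pecam1 (both endothelial), Ptprc (leukocytes) and Fshr (granulosa cells). Cells under 1000 UMIs or over 20% mitochondrial UMIs had been set aside, and the rule found 240 cells among the 30523 cells kept (33639 were deposited). The libraries came from mouse ovaries profiled by droplet single-cell RNA sequencing of 3′ transcript ends, 1 library per group. Each library pooled 1 ovary from each of 5 prepubertal mice, treated from postnatal day 25, and the tissue was taken 4 hours after the second doxorubicin dose. The strain is not given in the sources used here. The groups were a control given PBS/saline, doxorubicin (an anthracycline that poisons topoisomerase II) at 3 mg/kg in 2 weekly doses, the same doxorubicin combined with 0.75 mg/kg of recombinant human AMH (anti-Müllerian hormone, made by granulosa cells), and 0.75 mg/kg of AMH alone. With 1 pooled library per group, differences between animals could not be seen, no comparison between groups has a test, and all intervals below are 95% intervals that cover counting error only.

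Pericytes share a basement membrane with the endothelium. They depend on PDGF-B from endothelial cells, which acts on their receptor Pdgfrb, and on Notch3, which is switched on by Jagged ligands of the vessel wall. RGS5 shortens signals of G-protein-coupled receptors and is a widely used pericyte marker, while contractile proteins such as Acta2 and Myh11 are strongest in the mural cells of arterioles. In the ovary, this vascular bed grows with the follicles and the corpus luteum.

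The 240 cells were divided as 84 in the control, 53 in the doxorubicin, 48 in the doxorubicin+AMH and 55 in the AMH library. Below, 4 values in a row always follow this order. As a share of kept cells they made up 0.978% (exact binomial interval 0.781 to 1.21%), 0.827% (0.620 to 1.08%), 0.687% (0.507 to 0.910%) and 0.644% (0.485 to 0.837%). The control share lay above the upper limit of the AMH share, but the intervals of all 4 libraries overlapped. Without the cells rich in RNA of other cell types (defined below) the shares were 0.745, 0.687, 0.444 and 0.328%, and the upper limit of AMH (0.473%) lay below the lower limits of the control (0.574%) and doxorubicin (0.499%). With the rule applied after thinning each cell to 2000 UMIs the shares were 0.576, 0.671, 0.372 and 0.329%, highest in the doxorubicin library. Set against blood endothelial cells (at least 2 UMIs of Cdh5 and 1 of Pecam1, none of Ptprc, Fshr or Prox1), the order differed, with 35.9, 29.4, 34.3 and 41.4 pericytes per 100 endothelial cells. Against the other gates both AMH libraries were lower. Per 100 cells there were 14.2, 16.3, 11.1 and 11.0 for smooth muscle, 7.27, 6.36, 4.66 and 4.89 for stromal fibroblasts, and 11.3, 8.43, 6.45 and 7.55 for granulosa cells. A share of a dissociated suspension cannot tell fewer cells in the tissue from fewer cells set free.

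**Figure D1:**
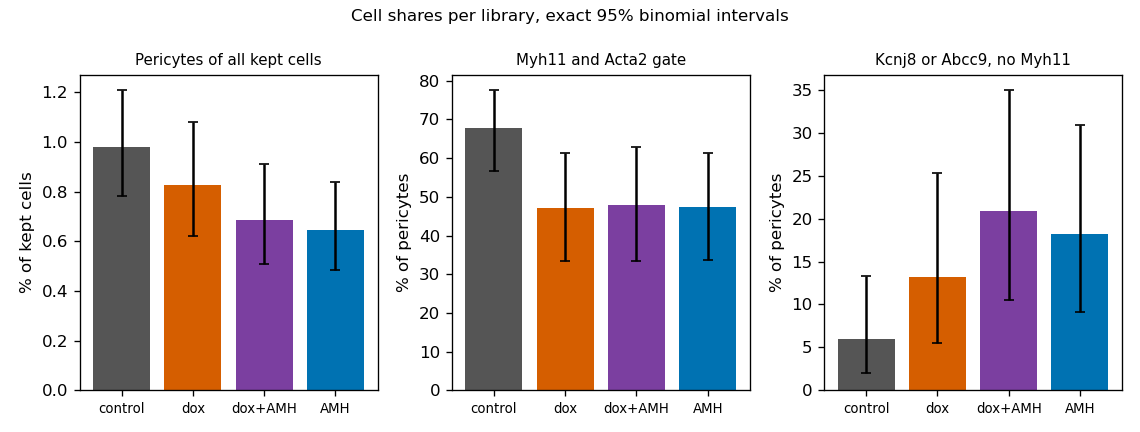
Bars give, for each library, the pericytes as a percentage of kept cells (left), and the percentage of pericytes with at least 3 UMIs of both Myh11 and Acta2 (middle) or with Kcnj8 or Abcc9 and no Myh11 (right); error bars are exact 95% binomial intervals. The control library is highest at left (0.978%) and in the middle (67.9%) and lowest at right (5.95%).

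Median depth was 8067, 10552, 7898 and 7555 UMIs per pericyte, and the summed pericyte counts held 1010240, 688759, 649900 and 668837 UMIs. A few deep cells weighed heavily in these sums: cells of 20000 UMIs or more were 13, 6, 8 and 10 in number and gave 38.7, 31.0, 51.5 and 48.1% of the UMIs. RNA typical of other cells was also present. Over 500 CPM (counts scaled to the same total in each library) of stromal, granulosa, theca or red blood cell markers, or of Cnn1 and Actg2 (smooth muscle, arteriolar smooth muscle included), was found in 20 of 84, 9 of 53, 17 of 48 and 27 of 55 pericytes. Both AMH libraries thus had the larger shares of such cells (35.4 and 49.1%, against 23.8 and 17.0%), so values without these cells stand beside the results they touch. Summed over its 10 genes, the endothelial list was low in pericytes (38.5 to 85.2 CPM, against 1209.7 to 2339 in endothelial cells), as the rule requires for Cdh5 and Pecam1. The 8 macrophage markers summed to 29.2 to 56.6 CPM and the 5 oocyte markers to 2.97 to 6.15 CPM. The 4 red blood cell markers summed to 40.6, 1606, 13.8 and 10.5 CPM, and 1 cell gave 98.7% of the Hbb-bs UMIs in the doxorubicin library. The 13 fibroblast markers came to 2165, 1333, 2457 and 2195 CPM and the 10 granulosa markers to 355, 537, 648 and 1151 CPM, the latter highest in the AMH library.

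The exclusions removed about as many cells as they left in all, but the AMH library lost more than it kept. Of 166, 104, 89 and 137 cells that met the Rgs5 and Notch3 or Mcam steps, 84, 53, 48 and 55 remained. Among the cells that met those steps, Fshr was found in 11, 9, 11 and 29 and Ptprc in 4, 2, 2 and 19. Of 496 cells with at least 3 UMIs of Rgs5 and a UMI of Notch3 or Mcam, 241 carried Cdh5 or Pecam1. Those 241 had a median of 44461 UMIs, against 8217.5 in the pericytes, and 573 CPM of the endothelial receptor Flt1 against 13.3 CPM. At the edge of the rule, 11 pericytes (0, 0, 9 and 2 by library) had 3 UMIs of Rgs5. Another 19 cells outside it (9, 2, 5 and 3) had 2. The cells just outside held 487 CPM of Notch3 and 480.0 CPM of Pdgfrb, and the 11 just inside 284 and 273 CPM. Of the granulosa gene Inha, the 11 held 917 CPM, the cells just outside 96.0 CPM and all pericytes 194 CPM.

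Promoters of the genes that define these cells are shown because 2 pairs of them are chromosomal neighbours. Rgs5 and Rgs4 start 92141 bases apart on chromosome 1 and face each other. Kcnj8 and Abcc9, the pore and the regulatory subunit of the vascular ATP-sensitive potassium channel, start 130660 bases apart on chromosome 6 on the same strand. Myl9, a myosin light chain of smooth muscle, is shown for the contractile genes. Each line gives the 250 bases before the gene's start, 5′ to 3′ on the gene's strand (RefSeq, GRCm38.p6, the assembly that mm10 names). Capitals mark a TATAAA (Rgs4), a TGGGAA, the core bound by the Notch effector RBPJ (Abcc9), or a CArG box, the site of serum response factor (Myl9).
Rgs5: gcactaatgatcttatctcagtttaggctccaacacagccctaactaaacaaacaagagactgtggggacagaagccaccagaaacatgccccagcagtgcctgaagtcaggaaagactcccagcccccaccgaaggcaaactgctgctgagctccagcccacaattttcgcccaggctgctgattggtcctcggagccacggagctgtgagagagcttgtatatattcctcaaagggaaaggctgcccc
Rgs4: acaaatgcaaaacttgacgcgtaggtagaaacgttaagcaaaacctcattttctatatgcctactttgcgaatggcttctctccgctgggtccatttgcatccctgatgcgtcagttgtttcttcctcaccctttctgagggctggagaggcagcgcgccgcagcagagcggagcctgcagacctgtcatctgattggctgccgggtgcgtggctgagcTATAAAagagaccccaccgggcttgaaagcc
Kcnj8: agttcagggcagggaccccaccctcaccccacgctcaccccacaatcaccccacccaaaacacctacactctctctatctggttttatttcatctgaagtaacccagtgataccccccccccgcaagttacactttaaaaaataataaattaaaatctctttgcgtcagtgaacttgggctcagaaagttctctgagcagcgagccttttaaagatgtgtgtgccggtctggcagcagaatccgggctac
Abcc9: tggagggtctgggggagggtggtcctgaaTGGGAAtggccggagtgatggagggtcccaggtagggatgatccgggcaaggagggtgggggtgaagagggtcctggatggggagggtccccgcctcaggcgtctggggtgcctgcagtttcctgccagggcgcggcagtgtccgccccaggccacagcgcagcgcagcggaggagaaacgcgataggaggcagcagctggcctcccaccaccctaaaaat
Myl9: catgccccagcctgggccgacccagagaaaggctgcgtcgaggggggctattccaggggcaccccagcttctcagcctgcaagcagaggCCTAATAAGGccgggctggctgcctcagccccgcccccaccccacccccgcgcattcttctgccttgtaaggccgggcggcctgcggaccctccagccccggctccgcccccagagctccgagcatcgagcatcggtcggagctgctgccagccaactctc
They lie at chr1:169655251-169655500 on the plus strand (Rgs5), chr1:169747643-169747892 on the minus strand (Rgs4), chr6:142571615-142571864 on the minus strand (Kcnj8), chr6:142702275-142702524 on the minus strand (Abcc9) and chr2:156775214-156775463 on the plus strand (Myl9). The search covered 4 motifs on both strands, namely TATAAA, the CArG box, the RBPJ core TGGGAA and the palindromic core bound by EBF factors. Rgs5 and Kcnj8 held none of them in this window, and no 2 matches overlapped in the others. Among all 32851 promoters of this length in the table, 12.4% held TATAAA, 21.6% held TGGGAA, 1.47% a CArG box and 0.779% the EBF core. Of the 28 genes of a pericyte marker list, 17 had a promoter there, and these held TATAAA in 5 genes, TGGGAA in 7 and neither a CArG box nor an EBF core. Of 20 contractile genes, 16 had a promoter, of which 3 held a CArG box (Myl6, Myl9 and Srf). In these counts a gene matched if any of its promoters did. The shares of all promoters count each promoter alone, so the units differ. Among the pericyte genes without an entry were Pdgfrb, Higd1b, Ndufa4l2, Cox4i2, Gm13889, Foxs1, Tbx2, Gjc1, Heyl and Cd248. A match describes letters and does not show a site in use.

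The label was checked against a list of 28 pericyte markers, which contains Rgs5, Notch3 and Mcam of the rule. Of the other 25 genes, 23 in each library were higher in these cells than in smooth muscle, stromal fibroblast and blood endothelial cells of the same library, and the 25 summed to 5760.0, 6934, 4548 and 4488 CPM. The smooth muscle gate (at least 3 UMIs of Cnn1 or Actg2, and Myh11) summed to 546 to 604 CPM, the fibroblast gate (at least 2 UMIs of Pdgfra, and Dcn) to 443 to 612 CPM and the endothelial gate to 897 to 1135 CPM. A list of 15 smooth muscle markers summed to 11757, 7667, 9078 and 10288 CPM in the pericytes and to 20544 to 23128 CPM in the smooth muscle gate. All 28 pericyte markers summed to 8726, 10374, 6547 and 6350 CPM in the pericytes. The check therefore does not tell pericytes from arteriolar smooth muscle with Rgs5, which the rule does not exclude. These comparisons describe the cells and have no test, since the rule set the gates apart. Rgs5 itself, which the rule used, stood at 2235, 2695, 1486 and 1295 CPM, and Notch3 at 543, 614, 402 and 432 CPM. Tbx18, a mural transcription factor of other organs, had no UMI in any pericyte, and Anpep was low (7.48 to 10.8 CPM).

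**Figure D2:**
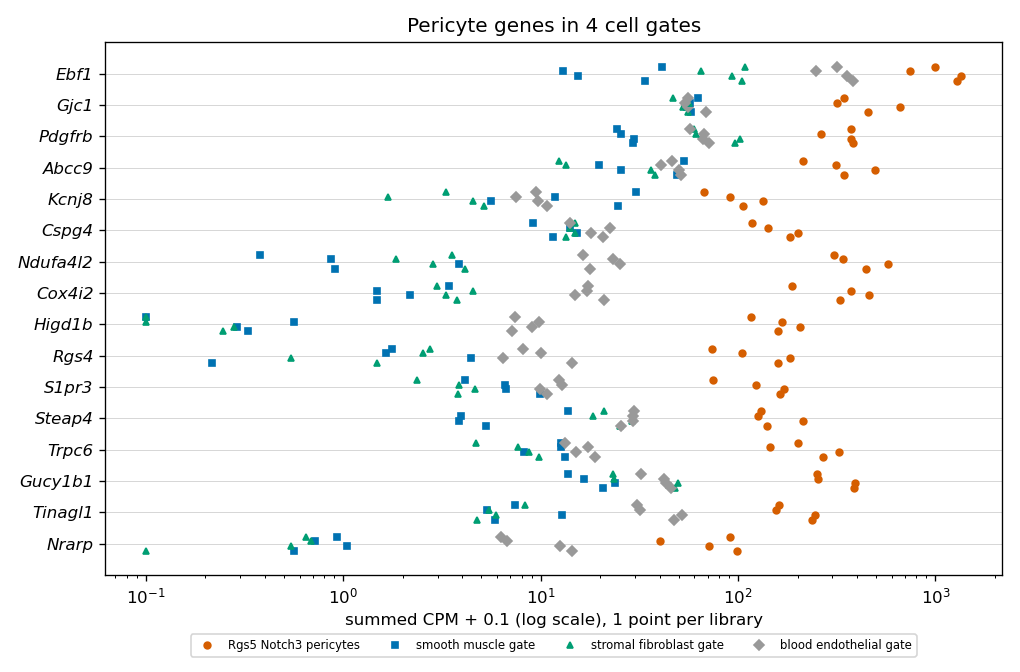
Each point is the summed CPM (plus 0.1, log scale) of 1 library in pericytes (circles), smooth muscle (squares), stromal fibroblasts (triangles) or blood endothelial cells (diamonds), for 16 genes that the rule did not use. Pericyte points lie to the right of the other 3 gates for each gene, with Ebf1 at 742 to 1350.2 CPM in pericytes.

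Genes outside the rule separated these cells from the other 3 gates in all 4 libraries. The 5 with the largest ratio to the highest of the 3 gates were Ndufa4l2, Sgip1, Higd1b, Cox4i2 and Crip1. Ndufa4l2, a subunit that replaces Ndufa4 in the respiratory chain under low oxygen, stood at 442, 578, 342 and 307 CPM, against at most 25.1 CPM in endothelium. Cox4i2, the oxygen-sensitive isoform of cytochrome c oxidase subunit 4, had 329.6, 460.2, 372 and 188 CPM in pericytes and 1.38 to 3.32 CPM in smooth muscle. Higd1b, of the family of hypoxia-induced inner membrane proteins, had 158, 206, 166 and 117 CPM and at most 0.178 CPM in fibroblasts. The common partners of these isoforms were not set apart: Cox4i1 was at 888 to 1000.1 CPM in pericytes and 1076 to 1129.6 CPM in smooth muscle, and Ndufa4 at 226 to 281 CPM lay below smooth muscle (561 to 685 CPM). Ndufa4l2 was seen in 88.6% of pericytes with Higd1b and in 65.0% of those without. The oxygen-regulated factor Epas1 was at 182 to 286 CPM in pericytes and 31.02 to 46.1 CPM in fibroblasts. Vegfa and Egln3, which hypoxia induces in many cells, did not pass the filter on low levels (a mean of 20 CPM and 100 UMIs in all).

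Other genes of this group of 20 work in signal transduction. Inpp4b, a phosphoinositide phosphatase, had 354, 357, 234 and 287 CPM, and Trpc6, a receptor-operated calcium channel, had 268, 325, 145 and 202 CPM. Both stayed under 30 CPM in each other gate. Olfr558, an olfactory receptor gene, had 113, 125, 47.7 and 47.8 CPM in pericytes and at most 3.70 CPM in endothelium. Its level in both AMH libraries lay below those of the other libraries, with intervals that did not overlap. Gpc6, a cell-surface heparan sulfate proteoglycan, reached 1146, 1754, 948 and 710.2 CPM, and Cspg4 (NG2), a classical pericyte proteoglycan, 183, 200.4, 142 and 118 CPM.

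The Notch pathway was represented from receptor to target. Of 20 listed genes, 11 passed the filter. Among receptors, Notch3 (part of the rule) was followed by Notch1 at 82.2, 66.8, 61.5 and 61.3 CPM, which endothelium shared (55.3 to 88.7 CPM), while Notch4 was at most 1.98 CPM. Of the ligands, Jag1 had 89.1, 94.4, 43.1 and 37.4 CPM in pericytes and 25.3 to 33.6 CPM in endothelium. Dll4 had 1.98, 7.26, 0 and 0 CPM in pericytes, where 0 UMIs in both AMH libraries allow up to 4.62 and 4.49 CPM, and 28.3, 27.5, 14.01 and 19.2 CPM in endothelium. Targets of Notch that pericytes carried above the other gates were Nrarp, a feedback inhibitor of the pathway (98.99, 71.1, 40.01 and 91.2 CPM, at most 14.3 CPM elsewhere), Heyl (122, 121, 90.8 and 133 CPM) and Hey2 (55.4, 52.3, 30.8 and 25.4 CPM). Hes1, a target of several pathways, did not set them apart (415 to 495 CPM in pericytes, 470.4 to 584 CPM in fibroblasts).

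Genes of the dialogue with endothelium were found on both sides. Pdgfrb, the receptor of PDGF-B, stood at 382, 372, 262 and 374 CPM in pericytes, 59.6 to 103 CPM in fibroblasts and 56.8 to 71.3 CPM in endothelium. Its ligand Pdgfb was at 4.49 to 18.9 CPM in pericytes and 53.2, 51.3, 22.2 and 27.6 CPM in endothelium. Pericytes carried Pdgfa (108, 132, 70.8 and 103 CPM), a ligand of the fibroblast receptor Pdgfra, above the level in fibroblasts (15.9 to 20.7 CPM). Angpt1, the angiopoietin that activates the endothelial receptor Tie2, was shared with smooth muscle (90.02 to 155 and 87.96 to 122 CPM), whereas its antagonist Angpt2 was higher in pericytes (43.4 to 74.05 CPM) than in the other 3 gates in each library. Pgf, a ligand of Flt1, had 48.5, 58.1, 41.5 and 34.4 CPM and stayed under 6 CPM elsewhere. Esam, a junction protein of vessels, had 90.1, 103, 46.2 and 58.3 CPM in pericytes and 143, 138, 60.4 and 89.2 CPM in endothelium, and at most 2.64 CPM in smooth muscle.

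Receptors for AMH and its relatives were mostly shared with other cells. AMH signals through Amhr2 with a type I receptor such as Bmpr1a, Bmpr1b or Acvr1, and through SMAD1, SMAD5 and SMAD9. Amhr2 itself was at 5.94, 10.2, 18.5 and 32.9 CPM in pericytes and did not pass the filter. In granulosa cells it was at 109, 119, 82.1 and 83.8 CPM, so the highest pericyte value, in the AMH library, came with the highest granulosa marker sum. Without the pericytes rich in RNA of other cells, Amhr2 stood at 8.57, 7.95, 7.11 and 9.79 CPM. Bmpr1a had 149, 131, 174 and 160.0 CPM and Bmpr2 158, 136, 171 and 212 CPM, and smooth muscle had more of Bmpr1a (196 to 233 CPM) and a like range of Bmpr2 (162 to 207 CPM). Of the direct BMP targets, Id3 was above the other 3 gates in each library, at 943, 989, 863 and 779 CPM against 295 to 538 CPM in smooth muscle and 613 to 823 CPM in fibroblasts. Id1 stood at 237, 113, 115 and 91.2 CPM and was highest in the control, with no overlap of its interval with the other 3.

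Machinery for relaxation was strong. Soluble guanylate cyclase makes cGMP when nitric oxide binds it, and its subunits Gucy1a1 (446, 507, 359 and 357 CPM), Gucy1b1 (387, 389, 252 and 251.2 CPM) and Gucy1a2 (304, 331, 202 and 230.3 CPM) were each higher in pericytes than in the other 3 gates. Prkg1, the cGMP-dependent kinase, had 2108, 2123, 1269 and 1443 CPM and smooth muscle 712 to 1031 CPM. Pde3a, which breaks down cAMP and is inhibited by cGMP, had 942, 841, 511 and 486 CPM and at most 139 CPM in the other gates. Among ion channels, Abcc9 had 343, 494, 312 and 214 CPM and Kcnj8 106, 134, 90.8 and 67.3 CPM, and both lay above all 3 other gates in each library. The 2 subunits were found in the same cells: 90.1% of pericytes with Kcnj8 also had Abcc9, against 38.0% of those without. A background of free RNA can be read from granulosa cells. With each cell thinned to 2000 UMIs, Kcnj8 was seen in 14.3 to 23.9% of pericytes and 0 to 0.16% of granulosa cells, and Rgs4 in 15.2 to 35.8% and 0 to 0.279%. The calcium-activated chloride channel Ano1 had 395, 379, 214 and 327 CPM and smooth muscle 13.6 to 70.5 CPM, and the L-type calcium channel Cacna1c 765, 729, 557 and 582 CPM.

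Receptors for vasoactive signals were fewer, with 6 of 23 passing the filter. Ednra, the endothelin receptor of mural cells, had 209.9, 144, 160.0 and 123 CPM, and S1pr3, a sphingosine-1-phosphate receptor, 162, 171, 123 and 74.8 CPM against at most 12.7 CPM in endothelium. Agtr1a, the angiotensin II receptor, was below the filter but above other gates (20.8, 42.1, 12.3 and 28.4 CPM, at most 3.86 CPM in endothelium). In the RGS family, 7 of 19 members passed. Besides Rgs5, Rgs4 (159, 183, 105 and 73.3 CPM) and Rgs16 (59.4, 90.02, 70.8 and 141 CPM) were higher in pericytes than in the other 3 gates, while Rgs2 was higher in smooth muscle (40.7 to 163 against 221 to 257 CPM). Rgs4, the chromosomal neighbour of Rgs5 whose promoter is shown above, was found in 134 of the 240 pericytes.

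Transcription factors and matrix completed the profile. Ebf1, needed for pericyte and stromal lineages, had 1289, 1350.2, 742 and 991 CPM, with at most 383 CPM in endothelium and 12.9 to 41.1 CPM in smooth muscle. Mef2c (725, 804, 426 and 531 CPM), Tbx2 (162, 166, 87.7 and 88.2 CPM) and Foxc1 (40.6, 42.1, 30.8 and 25.4 CPM) were likewise higher than in the other gates, while Nr2f2 (616 to 723 CPM) was well represented in all (401 to 476 CPM in endothelium). In the basement membrane list 27 of 30 genes passed. Col4a1 (1822, 2162, 1669 and 1377 CPM) and Col4a2 (1043, 1166, 854 and 724 CPM), the 2 main collagen IV chains, lay above the other gates in each library. Tinagl1, a basement membrane glycoprotein, had 238, 245, 155 and 161 CPM and 30.8 to 52.1 CPM in endothelium. Fibrillar Col1a1 was lower in pericytes (131 to 327 CPM) than in fibroblasts (876 to 1551 CPM). Kitl, the ligand of the Kit receptor on oocytes and theca, had 264, 254, 143 and 153 CPM and 281 to 358 CPM in endothelium. Il34, a ligand of the macrophage receptor Csf1r, had 54.4, 56.6, 55.4 and 47.8 CPM against at most 8.92 CPM in endothelium.

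Contractile genes divided the pericytes among themselves. At least 3 UMIs of both Myh11 and Acta2 were found in 57 of 84 (67.9%, interval 56.8 to 77.6%), 25 of 53 (47.2%, 33.3 to 61.4%), 23 of 48 (47.9%, 33.3 to 62.8%) and 26 of 55 (47.3%, 33.7 to 61.2%) cells. The other end, with Kcnj8 or Abcc9 and no Myh11 UMI, held 5, 7, 10 and 10 cells. The control library thus had the largest share with contractile genes, but its interval overlapped those of the others. The gate also favours deep cells, since the median of gated cells was 11041 UMIs and that of the Kcnj8 or Abcc9 cells 6162.5 UMIs. After each cell was thinned to 2000 UMIs (3 shallower pericytes left out), the share with a UMI of both Myh11 and Acta2 was 57.1, 43.4, 43.5 and 44.4%. Both genes are also strong in the smooth muscle of arterioles, which the rule does not exclude.

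Several genes that the gate did not use differed with it in each of the 4 libraries. The following are contractile or arteriolar: Tagln had 3328, 3410.3, 3052 and 3410.0 CPM in gated cells and 434, 132, 284 and 328 CPM in the other pericytes, Myl9 (promoter above) 1289, 1595, 1114 and 954 against 192, 166, 135 and 338 CPM, and Myocd, the coactivator that works at CArG boxes, 180.2, 149.8, 152 and 201 against 8.18, 0, 12.9 and 14.9 CPM. Ctnna3, an alpha-catenin of muscle junctions, had 1012, 1412, 503 and 441 against 217, 81.4, 25.8 and 214 CPM. Rcan2, a regulator of calcineurin, had 498, 726, 210.2 and 137 against 53.2, 67.8, 32.2 and 74.5 CPM. Other genes were lower in gated cells in all 4 libraries, and they include the channel and classical pericyte genes. Kcnj8 had 65.3, 27.9, 28.3 and 29.9 against 233, 275, 290.1 and 154 CPM and Abcc9 244, 112, 146 and 141 against 654, 1004, 845 and 382 CPM. Pdgfrb had 311, 231, 148 and 265 against 605, 559, 625 and 626 CPM, Higd1b 125, 137, 72.8 and 89.8 against 262, 298, 464 and 179 CPM, and Col4a1 1339.9, 1021, 1126 and 995 against 3333, 3685, 3404 and 2264 CPM. Ebf1 had 1090.5, 1084, 529.5 and 635 against 1910.0, 1705, 1418 and 1817 CPM. Notch3, with 565, 604, 303 and 372 against 474, 627, 716 and 571 CPM, was higher in the gated cells of the control and lower in those of the other 3 libraries. CPM are shares of a sum, so the levels of genes within 1 sum are not independent of each other. The contractile list alone came to 20285, 14776, 15886 and 17366 CPM of all pericytes.

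**Figure D3:**
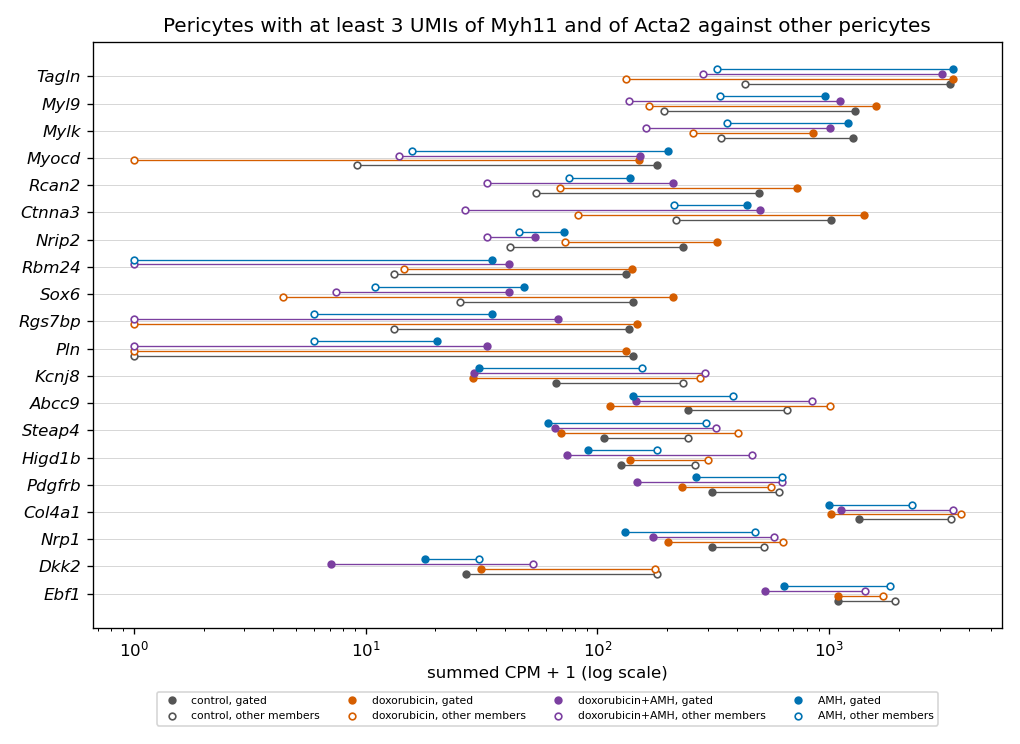
Summed CPM (plus 1, log scale) of 20 genes in pericytes with at least 3 UMIs of both Myh11 and Acta2 (filled points) and in the other pericytes (open points), joined within each library. From Tagln to Pln the filled point lies to the right in all 4 libraries, and from Kcnj8 to Ebf1 it lies to the left.

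How doxorubicin bears on these cells can be asked in 2 pairs that share no library: doxorubicin set against the control, and doxorubicin+AMH set against AMH alone. Past 2-fold on the scale of CPM + 5 were 115 of 5081 genes (2.26%) in the first pair (0.472% higher, 1.79% lower) and 80 of 5081 genes (1.57%) in the second (0.748% higher, 0.827% lower). The order of the pairs turned without pericytes rich in RNA of other cells. Then 18 of 2887 genes (0.623%) were past 2-fold in the first and 226 of 2887 (7.83%) in the second. It also turned without the cells gated on Myh11 and Acta2 (2.99 and 6.36%) and without cells of 20000 UMIs or more (1.6 and 3.27%). The same held with each cell weighted equally (2.34 and 4.23%), without the highest doublet scores (1.98 and 2.28%) and without the CPM filter (4.92 and 5.07%). In both pairs at once, 1 gene was higher (0.0197%) and 3 were lower (0.059%). The gene higher in both was Fdx1, the electron donor of steroidogenic cytochrome P450 enzymes, at 75.2, 174, 223 and 106 CPM, with log2 ratios of 1.16 (95% interval 0.79 to 1.65) and 1.04 (95% interval 0.65 to 1.502). Of the 8 theca markers, which include Fdx1, 4 passed the filter. Cyp11a1, the enzyme that starts steroid synthesis, had 21.8, 102, 6.15 and 8.97 CPM, Hsd3b1, the next enzyme of that path, 46.5, 192, 87.7 and 80.7 CPM and Aldh1a1, a retinaldehyde dehydrogenase, 39.6, 47.9, 78.5 and 11.96 CPM. With pericytes rich in RNA of other cells left out, Fdx1 stood at 77.2, 97.4, 153 and 103 CPM, with log2 ratios of 0.32 and 0.55. The part of theca RNA was not tested further. The 3 lower genes were Ctnna2, Adamts19 and Cnn1, and in each of them 1 cell gave over 60% of the UMIs in some library, so these ratios rest on few cells. The largest ratios of the first pair belonged to the haemoglobin genes Hbb-bs, Hba-a1 and Hba-a2, and the lowest to Foxp2, a transcription factor, at 139, 8.71, 197 and 206 CPM. When pericytes rich in other RNA were left out, Hbb-bs stood at 18.9, 17.9, 10.7 and 14.7 CPM and Foxp2 at 1.71, 3.98, 53.3 and 34.3 CPM.

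Of the 20 genes chosen for the largest like-signed difference in both pairs, 10 kept their direction under every alternative. Among those higher, besides Fdx1, were Plekha8, a lipid transfer protein (29.7, 58.1, 35.4 and 17.9 CPM), Fat1, a giant cadherin (52.5, 91.5, 67.7 and 38.9 CPM), and Ahsa2, a helper of HSP90 (24.7, 49.4, 47.7 and 28.4 CPM). Their log2 ratios were 0.86 (95% interval 0.25 to 1.70) and 0.82 (95% interval -0.086 to 2.12), 0.75 (95% interval 0.25 to 1.36) and 0.73 (95% interval 0.069 to 1.56), and 0.87 (95% interval 0.21 to 1.80) and 0.66 (95% interval -0.12 to 1.65). In the second pair the interval included 0 for Plekha8 and Ahsa2. Lower were Rtn2, an endoplasmic reticulum protein (89.1, 45.01, 44.6 and 79.2 CPM), and Id4, a repressor of helix-loop-helix factors (67.3, 29.04, 49.2 and 94.2 CPM), with ratios of -0.91 (95% interval -1.62 to -0.38) and -0.76 (95% interval -1.53 to -0.15) for Rtn2 and -1.09 (95% interval -2.01 to -0.48) and -0.87 (95% interval -1.60 to -0.30) for Id4. The other genes that kept their direction were Acsbg1, Lin7a, Dpyd and Atp8b1.

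Targets of p53, a transcription factor that responds to the DNA damage that doxorubicin causes, summed to 1611, 1763, 1554 and 1525 CPM. Of 30 listed genes, 10 passed the filter, and 1 of them was past 2-fold in the first pair and 0 in the second. The list's median log2 ratio was 0.11 and -0.071, beside -0.0072 and 0.035 for all genes. The gene past 2-fold was Cdkn1a (p21), the cell cycle inhibitor, at 66.3, 157, 84.6 and 97.2 CPM, with 1.18 (95% interval 0.79 to 1.70) in the first pair and -0.19 (95% interval -0.74 to 0.34) in the second. It was seen in 39.3, 37.7, 41.7 and 30.9% of pericytes, and 1 cell gave 25.9% of its UMIs in the doxorubicin library. It stood at 73.7, 207, 92.4 and 220.4 CPM without pericytes rich in other RNA, with log2 ratios of 1.43 and -1.21. These were past 2-fold in opposite directions, but the AMH value then rested on 28 cells. With each cell weighted equally, Cdkn1a had 81.8, 184, 98.97 and 99.9 CPM, with little difference in the second pair. Stromal fibroblasts of the same libraries had 34.8, 252, 67.5 and 48.3 CPM of Cdkn1a and endothelium 49.97, 168, 80.7 and 52.2 CPM. Bax, which opens mitochondria in cell death, had 86.1, 173, 117 and 127 CPM and a log2 ratio of 0.96 (95% interval 0.59 to 1.42) in the first pair, and Mdm2, the inhibitor of p53, 33.7, 55.2, 44.6 and 37.4 CPM. Cell death genes (7 of 16 passed) and genes that handle the drug (8 of 15) had 0 members past 2-fold in either pair, where 2.26 and 1.57% of all genes were.

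Of the BMP targets, 6 of 8 passed the filter, and Id1, Id2 and Id4 (3 of the 6) were past 2-fold lower with doxorubicin alone, against 1.79% of all genes. The list's median was -0.69 in the first pair and -0.0009 in the second, where 0 were past 2-fold. Id2 had 276, 40.7, 203 and 226 CPM, with -2.62 (95% interval -3.38 to -2.20) in the first pair. Without pericytes rich in other RNA it had 80.6, 37.8, 60.4 and 68.6 CPM, with a log2 ratio of -1.001. Id1 was then at -1.32 and Id4 at -0.67, short of 2-fold. For Id2, the smooth muscle gate held 430.2, 538, 452 and 322 CPM. Contractile genes (19 of 20 passed) had a median of -0.48 in the first pair, with Cnn1 and Actg2 past 2-fold lower, and -0.054 in the second. Acta2 was at 3961, 2378, 3064 and 4005 CPM, but 1 cell gave 52.7% of its UMIs in the AMH library. Without the cells gated on Myh11 and Acta2, the first median was -0.21.

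AMH was compared in 2 further pairs, again without a shared library: AMH set against the control, and doxorubicin+AMH set against doxorubicin alone. Past 2-fold were 161 of 5081 genes (3.17%) in the first pair (0.827% higher, 2.34% lower) and 252 of 5081 genes (4.96%) in the second (2.52% higher, 2.44% lower). In both pairs at once, 31 genes were lower (0.61%) and 14 higher (0.276%), and by any size 36.9% of genes were lower in both and 21.0% higher. With median-of-ratios scaling, 62 genes were past 2-fold higher and 76 lower in the first pair, 142 higher and 99 lower in the second, and 16 higher and 23 lower in both. In the second pair 37 genes were higher and 101 lower without cells of 20000 UMIs or more, and 36 and 74 without the rich cells. Without cells of 20000 UMIs or more, 17 genes were past 2-fold lower and 1 higher in both pairs, of 3183. Without the pericytes rich in RNA of other cells, 16 genes were past 2-fold lower and 5 higher in both pairs, of 2887 that passed. With each cell weighted equally these counts were 27 and 19, and without the cells gated on Myh11 and Acta2 8 and 5 of 1540.

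Rbm24, an RNA-binding protein that steers splicing in muscle, was among the lowest and kept its direction under every alternative. It stood at 103, 85.7, 30.8 and 23.9 CPM, and both AMH libraries lay under the others without overlap of the intervals. Its log2 ratios were -1.90 (95% interval -2.96 to -1.34) and -1.34 (95% interval -2.29 to -0.72). The same held for Man1b1, a mannosidase that trims glycoproteins, at 52.5, 56.6, 13.8 and 17.9 CPM, with log2 ratios of -1.32 (95% interval -2.59 to -0.63) and -1.71 (95% interval -3.26 to -0.96), and for Dkk2, a secreted modulator of Wnt signals, at 63.4, 92.9, 16.9 and 20.9 CPM, with log2 ratios of -1.40 (95% interval -2.55 to -0.75) and -2.16 (95% interval -3.53 to -1.52). Without pericytes rich in other RNA, Dkk2 had 66.9, 99.4, 31.98 and 19.6 CPM and Rbm24 132, 105, 17.8 and 34.3 CPM. In all 4 libraries Dkk2 was lower in the cells gated on Myh11 and Acta2 than in the other pericytes, and Rbm24 was higher.

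Genes past 2-fold lower in both pairs included Nrip2, Rcan2, Pln, Sox6 and Sncg, each of which was higher in the Myh11 and Acta2 cells than in the other pericytes of each library. Of the contractile list itself, 10 of 19 genes were lower in both pairs and 4 higher, beside 36.9 and 21.0% of all genes. Nrip2, which interacts with nuclear receptors, had 187, 218, 47.7 and 62.8 CPM, Rcan2 390.0, 444, 168 and 118 CPM, Pln, the brake on the calcium pump of the sarcoplasmic reticulum, 107, 75.5, 24.6 and 14.95 CPM, and Sox6, a transcription factor, 113, 122, 32.3 and 35.9 CPM. Without pericytes rich in other RNA, Nrip2 stood at 254, 229, 67.5 and 103 CPM, Rcan2 at 509, 491, 224 and 269 CPM, Pln at 151, 85.5, 14.2 and 34.3 CPM and Sox6 at 146, 153, 24.9 and 97.9 CPM. In AMH against control, Rcan2 and Sox6 were then short of 2-fold, with log2 ratios of -0.91 and -0.55. Sncg, a synuclein, had 46.5, 87.1, 12.3 and 8.97 CPM, with log2 ratios of -1.88 (95% interval -3.89 to -1.15) and -2.41 (95% interval -4.10 to -1.75), and 72.02, 95.4, 24.9 and 29.4 CPM without the rich cells. Within the gated cells, Nrip2 had 234, 328, 52.5 and 70.6 CPM, Rcan2 498, 726, 210.2 and 137 CPM, Pln 141, 132, 32.3 and 19.3 CPM, Sox6 141, 211, 40.4 and 47.1 CPM and Rbm24 132, 139.7, 40.4 and 34.2 CPM. There, too, both AMH libraries lay below the others for all 5 genes. Tagln had 3328, 3410.3, 3052 and 3410.0 CPM in the gated cells. Outside the gate, where these genes were rare, the direction turned for Nrip2, Pln and Rcan2 in AMH against control and for Sox6 in the other pair, and Pln had no difference there. Sncg had no UMI outside the gate in any library.

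**Figure D4:**
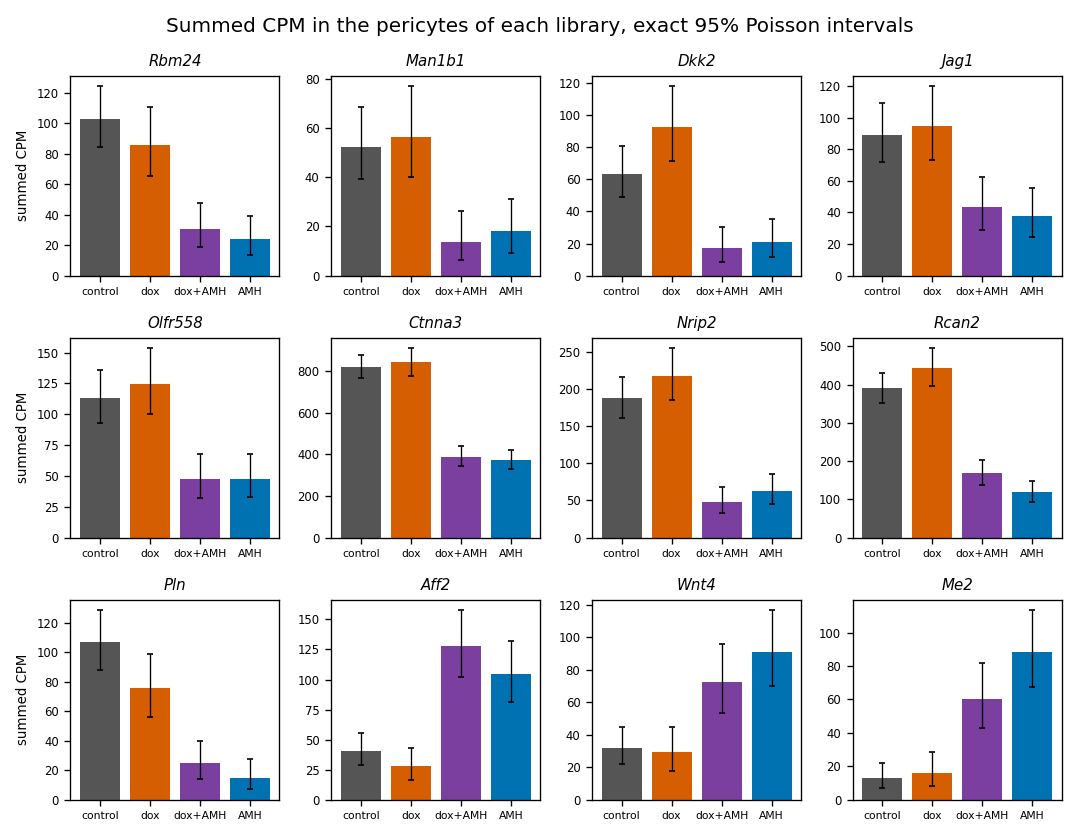
Bars give the summed CPM of 12 genes in the pericytes of each library, with exact 95% Poisson intervals. The 9 genes from Rbm24 to Pln are lower in both AMH libraries than in control and doxorubicin, and Aff2, Wnt4 and Me2 are higher.

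The Notch ligand Jag1 was at -1.15 (95% interval -1.95 to -0.60) and -1.05 (95% interval -1.83 to -0.47) on the log2 scale, and Efnb2, a ligand of Eph receptors on venous endothelium, had 91.1, 71.1, 33.9 and 40.4 CPM, with log2 ratios of -1.08 (95% interval -1.85 to -0.54) and -0.97 (95% interval -1.87 to -0.32). In the Notch list, 9 of 11 genes that passed were lower in both pairs and 1 was higher, where 36.9% of all genes were lower and 21.0% higher. The list's medians were -0.39 and -0.31, and -0.12 and -0.053 without pericytes rich in other RNA, beside -0.12 and -0.041 for all genes. The list contains Notch3, which the rule used. Without Notch3, 8 of 10 genes were lower in both pairs and 1 was higher, with medians of -0.44 and -0.30, and with the rich cells left out as well 5 of 9 were lower and 1 higher. Jag1 was the gene past 2-fold in each pair. Olfr558 was at -1.16 (95% interval -1.85 to -0.66) and -1.30 (95% interval -2.03 to -0.78), and Ctnna3, at 819.6, 842, 389 and 372 CPM, at -1.13 (95% interval -1.35 to -0.93) and -1.10 (95% interval -1.33 to -0.90). With each cell weighted equally, Jag1 stood at 116, 101, 57.4 and 45.6 CPM, Olfr558 at 141, 132, 60.8 and 58.6 CPM and Ctnna3 at 1099, 910.0, 398 and 568 CPM, and for each gene both AMH libraries again lay below the others. Leaving out pericytes rich in other RNA gave log2 ratios of -0.997 and -0.88 for Jag1, -0.69 and -0.79 for Efnb2, -0.96 and -0.64 for Olfr558, and -0.59 and -1.13 for Ctnna3, which then stood at 1163, 945, 429.9 and 769 CPM.

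Of the 10 genes chosen as highest in both AMH pairs, 3 kept their direction under every alternative. Wnt4, a secreted factor of ovarian development, had 31.7, 29.04, 72.3 and 91.2 CPM, with 1.39 (95% interval 0.89 to 2.19) and 1.18 (95% interval 0.53 to 2.15). It was seen in 19.05, 20.8, 31.2 and 36.4% of pericytes, and without those rich in other RNA its level was 22.3, 29.8, 53.3 and 73.5 CPM. Aff2, a nuclear protein, had 40.6, 27.6, 128 and 105 CPM, with log2 ratios of 1.27 (95% interval 0.79 to 1.96) and 2.03 (95% interval 1.48 to 3.01), and without the rich cells it had 5.14, 21.9, 31.98 and 14.7 CPM, with log2 ratios of 0.96 and 0.46. Me2, the mitochondrial malic enzyme, had 12.9, 15.97, 60.01 and 88.2 CPM, with log2 ratios of 2.38 (95% interval 1.89 to 3.77) and 1.63 (95% interval 0.92 to 3.02), and without the rich cells it had 12.004, 13.9, 14.2 and 24.5 CPM, a smaller difference. The granulosa gate held 49.4, 77.4, 23.7 and 27.5 CPM of Wnt4, and granulosa markers were highest in the pericytes of the AMH library. The part of granulosa RNA in Wnt4 was not tested beyond these values. Cell cycle genes Cenpf and Ube2c were also past 2-fold higher in both pairs, but were seen in 4.76, 5.66, 12.5 and 12.7% and 9.52, 9.43, 14.6 and 14.5% of pericytes and their log2 ratios of AMH against control turned to -1.71 and -1.60 without the cells rich in other RNA.

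Whether the pericyte markers were lower with AMH depended on which cells were counted. Of 25 markers that passed, 21 were lower in both pairs and 0 higher, where 36.9% of all genes were lower in both. With median-of-ratios scaling 17 of 25 were lower in both, where 27.8% of all genes were. With the scaling to CPM the median log2 ratios were -0.41 and -0.53, beside -0.10 and -0.048 for all genes. The list contains Rgs5, Notch3 and Mcam, which chose the cells. Without these 3 genes, 18 of 22 were lower in both and 0 higher, with medians of -0.39 and -0.52. In other cells of the same libraries the list's median was -0.44 and -0.51 beside -0.068 and -0.039 for all genes in fibroblasts (10 genes passed), -0.27 and -0.10 beside -0.069 and -0.039 for all genes in endothelium (16 genes) and -0.0054 and -0.078 beside -0.019 and -0.034 for all genes in smooth muscle (7 genes). The next 3 counts of pericyte markers again include Rgs5, Notch3 and Mcam. Without pericytes rich in other RNA, 10 of 22 were lower in both and 4 higher, where 36.2% of all genes were lower in both. The medians were -0.22 and -0.036. These lay beside -0.12 and -0.041 for all genes. Without cells of 20000 UMIs or more, 11 of 24 were lower in both (36.4% of all genes) and 5 higher. Without the cells gated on Myh11 and Acta2, 5 of 21 were lower in both (29.5% of all genes) and 5 higher. The medians were -0.17 and 0.19, opposite in sign. With Rgs5, Notch3 and Mcam left out, 8 of 19 were lower in both and 4 higher without rich cells. Likewise 8 of 21 were lower and 5 higher without cells of 20000 UMIs or more, and 5 of 18 and 3 without gated cells. The cells of 20000 UMIs or more gave larger shares of the UMIs in both AMH libraries than in the others, as given above. Relaxation genes of the cGMP and cAMP list had medians of -0.49 and -0.46, with 10 of 12 lower in both pairs, and ion channels -0.48 and -0.36, with 11 of 14, where 36.9% of all genes were lower in both. Without pericytes rich in other RNA these medians were -0.16 and -0.16 for the cGMP and cAMP list and -0.23 and -0.088 for ion channels. The BMP targets, which lie downstream of the SMAD proteins that AMH uses, had medians of -0.28 and 0.32, opposite in sign, with 1 of 6 higher in both pairs and 2 lower. Id1 was -1.33 (95% interval -1.81 to -0.96) in AMH against control and 0.026 (95% interval -0.45 to 0.503) in the pair with doxorubicin.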

How the data were processed

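The deposited files give raw UMI counts of 32285 genes in each cell barcode; per the file headers they come from Cell Ranger 7.0.0. The submitters' processing notes name mm10, R 4.2.0 and Seurat 4.1.0; whether intronic reads were counted is not given in the sources used here. The pericytes and the 33 gene lists (506 genes) were chosen with earlier results of these data known. Counts of pericytes were summed per library and scaled to CPM. Ratios are log2((CPM + 5) / (CPM + 5)), with exact conditional intervals of the ratio of counts, for the 5081 genes whose mean reached 20 CPM and whose total reached 100 UMIs. CPM have exact Poisson and shares exact Clopper-Pearson 95% intervals (scipy 1.17.1); a count of 0 allows up to 3 counts. The calculation was tested on simulated data.

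Genes to be named were drawn from the pericyte markers, the 20 highest against the other gates, the 10 highest and 10 lowest like-signed in both pairs of a treatment, the 5 highest and 5 lowest of 2 single pairs, and, in each list, up to 6 with the highest mean and those past 2-fold; mitochondrial, ribosomal and predicted genes were left out of the ranked sets. Not all of them are given. Other listed genes were named after their values were seen. Libraries shared 11 to 24 barcodes in pairs, and no barcode was a pericyte in 2 libraries. Scrublet (scanpy 1.11.5) marked 0 cells by its automatic threshold, so it had not worked; doublets were left in, and the highest scores (0.8% of cells per 1000 cells) were removed as an alternative, which took 7, 3, 8 and 4 pericytes. The alternatives without pericytes of 20000 UMIs or more and without those over 500 CPM of other cells' markers were added after seeing the data.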

Additional observations from a re-analysis of the deposited data

Results flagged for a closer look

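The genes Ccl2, Fabp4 and Rgcc stood past 2-fold higher with doxorubicin in the absence of AMH and past 2-fold lower with doxorubicin in its presence. With 1 library per group the difference was not tested. Ccl2, a chemokine that draws monocytes, had 7.92, 95.8, 4.62 and 47.8 CPM and log2 ratios of 2.96 and -2.46. It was seen in 5, 4, 2 and 8 pericytes, and 1 cell gave 87.9% of its UMIs in the doxorubicin library. Fabp4, a fatty acid carrier of capillary endothelium, had 34.6, 235, 20.003 and 115 CPM and ratios of 2.60 and -2.26, and 1 cell gave 85.7% of its UMIs in the AMH library. Rgcc, a cell cycle regulator that is also strong in endothelium, had 10.9, 121, 30.8 and 85.2 CPM and ratios of 2.98 and -1.33. In the doxorubicin library 1 cell gave 79.5% of its UMIs. Without pericytes rich in other RNA, Rgcc had 13.7, 13.9, 10.7 and 39.2 CPM, so its rise with doxorubicin alone was absent. Ccl2 then had 10.3, 131, 10.7 and 48.97 CPM, and Fabp4 48.02, 312, 31.98 and 357 CPM.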

How the results depend on the processing

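No paired analysis was possible because each group has 1 library, and no replicate could be left out. The share of pericytes became 0.576, 0.671, 0.372 and 0.329% in the 4 libraries when the rule was applied after thinning to 2000 UMIs, and 0.745, 0.687, 0.444 and 0.328% in the 4 libraries without cells rich in RNA of other cell types. Genes past 2-fold in doxorubicin against control numbered 46 of 1540 tested (2.99%) without the cells gated on Myh11 and Acta2, 51 of 3183 (1.6%) without cells of 20000 UMIs or more, 18 of 2887 (0.623%) without cells rich in other RNA, 523 of 10627 (4.92%) without the CPM filter and 564 of 5081 (11.1%) at 1.5-fold. In doxorubicin+AMH against AMH they numbered 98 (6.36%) without gated, 104 (3.27%) without deep and 226 (7.83%) without rich cells. Without the filter there were 539 (5.07%), with each cell weighted equally 215 (4.23%) and at 1.5-fold 517 (10.2%). In AMH against control they numbered 86 (5.58%) without gated, 98 (3.08%) without deep and 163 (5.65%) without rich cells, 572 (5.38%) without the filter and 766 (15.1%) at 1.5-fold. The same alternatives in doxorubicin+AMH against doxorubicin gave 54 (3.51%), 138 (4.34%), 110 (3.81%), 907 (8.53%) and 920 (18.1%). Without the highest doublet scores, 59 genes were past 2-fold lower and 31 higher in both AMH pairs. The pericyte list's median, its rule genes included, became 0.19 without gated, -0.074 without deep and -0.036 without rich cells in doxorubicin+AMH against doxorubicin. The contractile median became -0.21 in doxorubicin against control and -0.016 in AMH against control without gated cells, 0.23 in doxorubicin+AMH against AMH and -0.68 in AMH against control without deep cells, -0.68 in AMH against control with equal weights, and in doxorubicin+AMH against doxorubicin -0.36 without rich cells and -0.35 with equal weights. Without gated cells the log2 ratio turned to -0.23 for Ccl2 and -0.67 for Rgcc in doxorubicin against control, to 0.11, 0.995 and 0.45 for Nrip2, Pln and Rcan2 in AMH against control, to 0.00 for Sncg in both AMH pairs, and to -0.21, 0.00 and 0.45 for Id2, Pln and Sox6 in doxorubicin+AMH against doxorubicin. Cenpf and Ube2c turned to -1.71 and -1.60 in AMH against control without rich cells, and Ube2c to -0.23 in doxorubicin+AMH against doxorubicin without the highest doublet scores. The causes were not tested. Over the alternatives of 47 ratios of single genes, 386 values kept their direction and lay near the reported value, 71 moved further in the same direction or toward 0, and 13 turned or became 0. Intervals cover counting error in 48 to 84 cells per library. Genes under a mean of 20 CPM were left out of the main ratios, and levels given for them rest on few UMIs.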

Other observations

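Chemokine, interferon, stress and steroid hormone genes belong to none of the groups described above. Of the chemokine and cytokine list, 8 of 18 genes passed. Cxcl12, which retains leukocytes, had 69.3, 59.5, 64.6 and 71.8 CPM, and Ccl19 14.8, 18.9, 168 and 58.3 CPM, of which 1 cell gave 66.7% in the AMH library. The 17 interferon-response genes, of which 7 passed, had median log2 ratios of 0.21 and -0.088 in the doxorubicin pairs. Immediate-early and heat shock genes, which dissociation induces, passed in 19 of 19 cases, and 10 of them were higher in both AMH pairs and 1 lower, where 21.0% of all genes were higher and 36.9% lower. Hspa1a, a heat shock protein, had 97.996, 74.05, 117 and 272 CPM and was highest in the AMH library.

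Receptors for steroid hormones were present at levels that overlapped with those of other gates. Esr1, the estrogen receptor alpha, had 79.2, 52.3, 46.2 and 132 CPM, with 101 to 149 CPM in fibroblasts, and Nr3c1, the glucocorticoid receptor, 146, 105, 115 and 94.2 CPM, with 91.96 to 124 CPM in endothelium. Tsc22d3, a target of glucocorticoids, had 52.5, 23.2, 43.1 and 38.9 CPM, lowest in the doxorubicin library.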
